A study of Mus musculus with 12 samples.

Results

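The BAG co-chaperones Bag3, Bag1, Bag5 and Bag6, the small heat shock proteins Hspb1 and Hspb8, and Synpo2, Sqstm1 and Stub1, genes of BAG3-linked protein quality control, were followed through the translating messenger RNA of mouse keratinocytes. The 9 genes were matched by symbol among the 54532 genes of the deposited count table, and 8 of them had enough counts to be among the 13571 genes tested. They had been chosen from results for all 4 groups of these libraries, so the members' differences between groups are given here as a description. Which members passed the threshold of the fit over all genes is reported beside the share of all genes that did, and is no independent evidence for them. Bag3 was the member with the largest difference, 3.45-fold higher in the cortical than in the total fraction of unwounded cells and 1.65-fold higher after wounding.

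The study compared messages translated at the cell cortex with those translated elsewhere, in unwounded and wounded cells. All 4 groups were keratinocytes with the genotype WT DP-BirA(1-584), grown to confluence and then given calcium to differentiate and doxycycline at 2 µg/mL to switch on DP(1-584)-BirA, a fusion that carries a biotin ligase. The cells were wounded or left alone and then given biotin for 16 h. The translating part of a sucrose gradient was passed over neutravidin resin: the bound RNA is the cortical fraction, and the RNA left after that depletion is called total. There were thus 4 groups, a total and a cortical fraction from unwounded and from wounded cells, each with 3 libraries that the titles call biological replicates. The labels do not say whether these came from separate cultures, so the p-values below measure the spread between these libraries. No group lacked the fusion, the doxycycline or the biotin, and the amount of RNA per cell and the number of contributing cells cannot be told apart.

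Most BAG proteins bind the ATPase domain of Hsp70 chaperones and promote nucleotide exchange, so that the chaperone lets go of its client. BAG3 joins Hsp70 to small heat shock proteins, chiefly HSPB8, and to the ubiquitin ligase STUB1 (CHIP). The marked client is passed to the autophagy receptor SQSTM1 (p62), and SYNPO2 links the complex to the forming autophagosome. This route, chaperone-assisted selective autophagy, is best known for removing damaged filamin from actin structures under tension. BAG1 instead directs clients to the proteasome, and BAG6 handles membrane proteins that fail to insert.

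Several of these genes are known targets of the heat shock factor HSF1, so their promoters were searched for its paired binding unit, written GAANNTTC or TTCNNGAA, on both strands. The RefSeq promoter table (GRCm38.p6) covered all 9 members with windows from 250 bases before to 50 after the start. The unit was found in 4 of the 9 genes and in 15.1% of all 32851 promoters. The matches lay at position -117 and -97 in Hspb1, 43 in Bag3, 3 in Hspb8 and -123 in Stub1, counted from the RefSeq start. For Hspb1 and Hspb8 that start is the one in the deposited table. For Bag3 it lies outside and for Stub1 inside the deposited gene. The matches of Bag3, Hspb8 and Stub1 thus fall within the genes as deposited, and both matches of Hspb1 lie upstream of its gene. The matches of Bag3 and Hspb8, whose proteins work as a pair, and of Hspb1, the most abundant member, are printed here with the matched unit in capitals. The same 8 letters, GAAGTTTC, stand in Bag3, in Hspb8 and in the first match of Hspb1. The coordinates are chr7:128523615-128523632 (plus strand) for Bag3, chr5:116422845-116422872 (minus strand) for Hspb8 and chr5:135887782-135887849 (plus strand) for Hspb1.
Bag3: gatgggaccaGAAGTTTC
Hspb8: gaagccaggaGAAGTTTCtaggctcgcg
Hspb1: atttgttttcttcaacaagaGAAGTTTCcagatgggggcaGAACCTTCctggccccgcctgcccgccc
Of the 4 genes with a match, Bag3 was higher in the cortical fraction, and Hspb1, Hspb8 and Stub1 were lower. A link between the matches and these levels was not tested. The antioxidant response letters TGACNNNGC, also searched on both strands, were found in Bag1 only, at position -22, and in 12.4% of all promoters.

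The 12 libraries held 8980013 to 23457548 counts. Levels are given as normalised CPM (counts scaled by library size with TMM factors), and levels of different genes are set side by side only in the deposited FPKM, which is per gene length. One library stood apart: in wounded total replicate 1, 13117 genes were detected, while the other 11 libraries ranged from 14393 to 16867. Its TMM factor was 1.05, against 0.843 and 0.831 in wounded total replicates 2 and 3, and this scaling enters the CPM of that group. The 6 keratinocyte markers, none at 0, summed to 8204 to 9438 CPM in unwounded total, 12775 to 12872 in unwounded cortical, 14528 to 17252 in wounded total and 18005 to 18388 CPM in wounded cortical libraries. That sum separated the groups without overlap, and its part in the members' differences was not tested. It was nearly all Krt5 and Krt14, while Trp63, Itga6, Itgb4 and Dsg3 each stayed at or below 125.3 CPM. Fibroblast, muscle, melanocyte and endothelial lists stayed at or below 6.47, 2.20, 2.27 and 1.87 CPM, with Dcn, Myog, Tyr and Cdh5 at 0 in all libraries. The immune list summed to 17.8 to 24.9 CPM in unwounded and 32.9 to 58.7 CPM in wounded libraries, nearly all of it Cd68, with Csf1r at 0; its part in the wound differences was not tested.

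Bag3, the co-chaperone that starts the autophagic route (chr7:128523616-128546981 of GRCm38, plus strand, protein coding), was at 66.2, 66.7 and 80.5 CPM in the unwounded total libraries and at 241, 231 and 264 CPM in the unwounded cortical libraries. In wounded cells it was at 87.5, 82.0 and 101 CPM in the total and at 146, 156 and 143 CPM in the cortical libraries. No 2 of the 4 groups overlapped, and the order from high to low was unwounded cortical, wounded cortical, wounded total, unwounded total. On the log2 scale the cortical level exceeded the total by 1.79 (SE 0.11) in unwounded and by 0.72 (SE 0.11) in wounded cells. Wounded cells had 0.34 (SE 0.11) more Bag3 than unwounded cells in the total fraction and a log2 difference of -0.72 (SE 0.11) in the cortical fraction. The cortical-to-total ratio was thus 2.09-fold smaller in wounded cells, a log2 difference of -1.07 (SE 0.16). Among the 9318 tested genes whose mean count was 100 or more, Bag3 ranked 15 from the top in the unwounded cortical-to-total comparison and 407 in the wounded one. In the wound change of that ratio it ranked 41 from the bottom. The comparisons share libraries, so their values for 1 gene are not independent of each other.

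**Figure D1:**
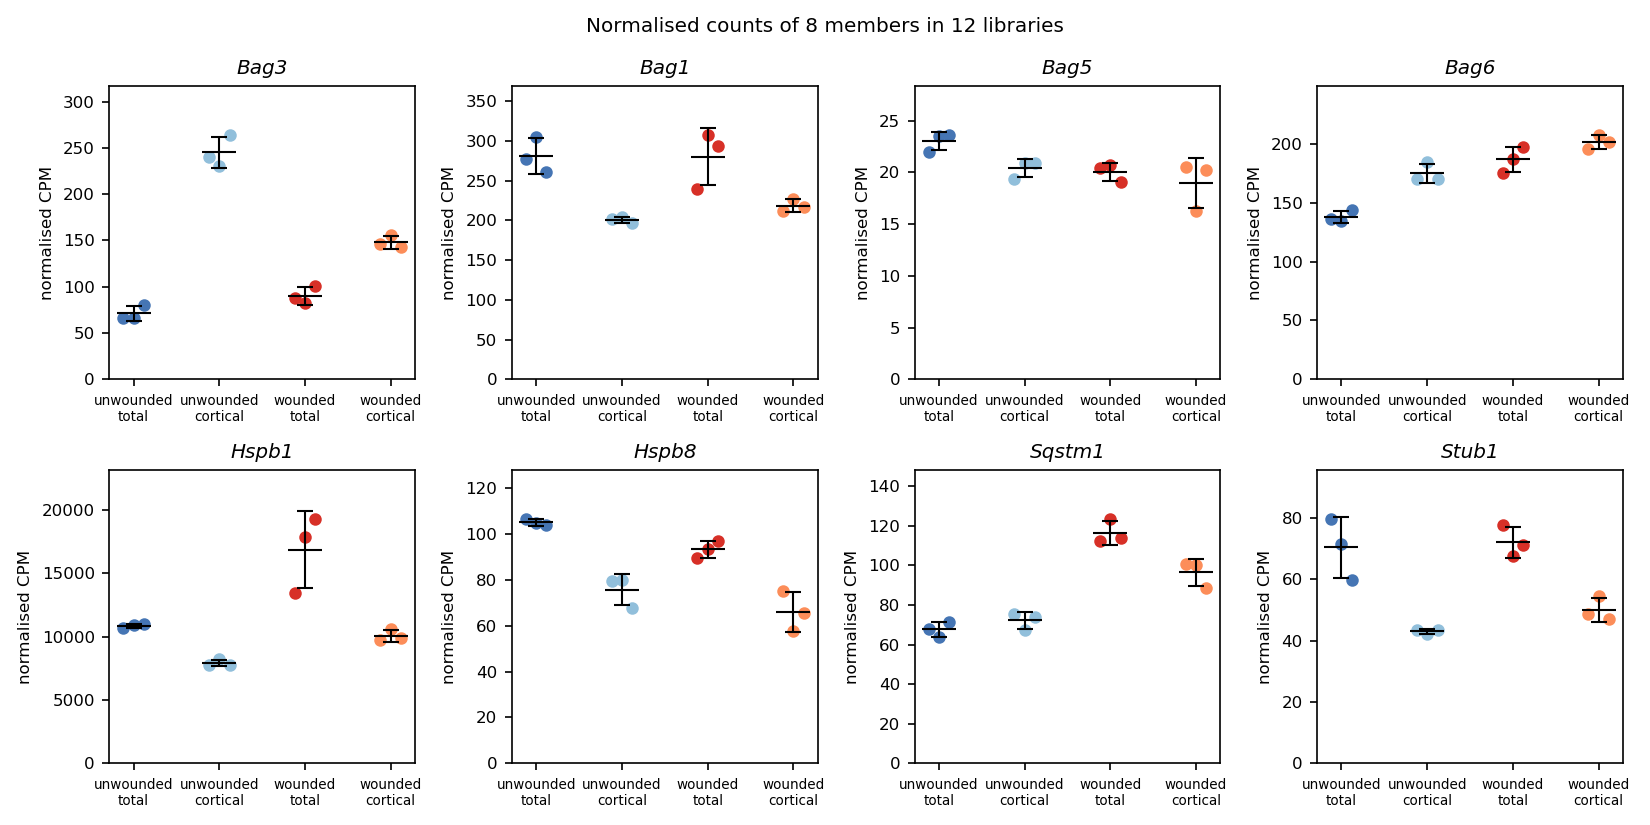
Normalised CPM (vertical axes, from 0, 1 panel per gene) of the 8 tested members in the 4 groups; points are the 3 libraries, the black bar is their mean and the whiskers are the SD. Bag3 separates into 4 groups with no overlap, and Hspb1 ranges from 7753 CPM in an unwounded cortical library to 19305 CPM in a wounded total library.

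Bag1, which shares the Hsp70-binding domain but delivers clients to the proteasome (chr4:40936398-40948294, minus strand), differed the other way between fractions. It was at 277, 306 and 260 CPM in unwounded total and at 202, 204 and 197 CPM in unwounded cortical libraries. In wounded cells the total libraries held 240, 308 and 293 CPM and the cortical libraries 211, 227 and 217 CPM. Cortical libraries were below total libraries in both conditions without overlap, by log2 differences of -0.48 (SE 0.11) and -0.36 (SE 0.11). Bag1 stayed the more abundant message of the pair per length, but the margin differed by group. The FPKM ratio of Bag3 to Bag1 was 0.135 ± 0.0250 (SD, n = 3) in unwounded total and 0.643 ± 0.0573 in unwounded cortical libraries. After wounding it was 0.171 ± 0.0273 in total and 0.358 ± 0.00932 in cortical libraries, so that cortical ratios lay above total ratios in each condition.

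Bag6, a large nuclear and cytosolic chaperone for exposed membrane segments (chr17:35135178-35147322, plus strand), was lowest in unwounded total cells. Its levels there were 136, 134 and 144 CPM, against 170, 184 and 171 CPM in unwounded cortical libraries. Wounded total libraries held 176, 188 and 197 CPM and wounded cortical libraries 196, 208 and 201 CPM. The fractions were apart in unwounded cells, by 0.34 (SE 0.09) on the log2 scale, and overlapped in wounded cells. The wound difference was 0.44 (SE 0.09) in the total and 0.20 (SE 0.09) in the cortical fraction.

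Bag5, built of repeated BAG domains (chr12:111709488-111713257, minus strand), was the least abundant tested member, at 8.15 FPKM over all libraries. It lay between 16.2 and 23.6 CPM in every library. Its 4 log2 differences between pairs of groups ran from -0.20 to -0.08, each with an SE of 0.14.

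Hspb1 encodes the small heat shock protein HSP27, an actin-associated chaperone that is abundant in epidermis (chr5:135887919-135889563, plus strand). At 11015 FPKM over all libraries, it stood far above the next member, Bag1 at 180 FPKM, and it had the highest count of any gene in all 3 wounded total libraries. It was at 10649, 10957 and 10969 CPM in unwounded total libraries and at 7753, 8219 and 7793 CPM in unwounded cortical libraries. Wounded total libraries held 13437, 17892 and 19305 CPM, and wounded cortical libraries 9718, 10619 and 9924 CPM. Wounded total replicate 1, the library with fewer genes detected, was the lowest of its group but still above every library of the other groups. As a share of all counts, Hspb1 made up 1.04% ± 0.0388 (SD, n = 3) of unwounded total, 0.866% ± 0.0290 of unwounded cortical, 1.51% ± 0.0942 of wounded total and 1.06% ± 0.0601 of wounded cortical libraries. The cortical level was lower than the total by log2 differences of -0.45 (SE 0.12) in unwounded and -0.74 (SE 0.12) in wounded cells. The wound difference was 0.64 (SE 0.12) in the total and 0.35 (SE 0.12) in the cortical fraction, with no overlap of the groups in either.

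Hspb8, the small heat shock protein that binds BAG3 (chr5:116408491-116422864, minus strand), was lower in the cortical fraction, where Bag3 was higher. It was at 107, 105 and 104 CPM in unwounded total and at 79.4, 79.9 and 67.8 CPM in unwounded cortical libraries. Wounded total libraries held 89.7, 93.7 and 96.9 CPM and wounded cortical libraries 75.2, 57.7 and 65.5 CPM. The log2 differences between fractions were -0.47 (SE 0.11) in unwounded and -0.50 (SE 0.11) in wounded cells. The 2 partners therefore changed places in level per length: the FPKM ratio of Bag3 to Hspb8 was 0.515 ± 0.0640 (SD, n = 3) in unwounded total and 2.49 ± 0.415 in unwounded cortical libraries. In wounded cells the ratio was 0.734 ± 0.0633 in total and 1.73 ± 0.298 in cortical libraries. It was below 1 in all 6 total libraries and above 1 in all 6 cortical libraries.

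Stub1, the ubiquitin ligase that marks Hsp70 clients (chr17:25830636-25833361, minus strand), was at 79.6, 71.6 and 59.8 CPM in unwounded total and at 43.4, 42.1 and 43.4 CPM in unwounded cortical libraries. Wounded total libraries held 77.6, 67.5 and 71.1 CPM and wounded cortical libraries 48.5, 54.4 and 46.9 CPM. All 6 cortical libraries were below all 6 total libraries, with log2 differences of -0.71 (SE 0.12) and -0.53 (SE 0.12). The wound difference was 0.03 (SE 0.12) in the total fraction, where the groups overlapped, and 0.21 (SE 0.12) in the cortical fraction. In GENCODE M21, 1084 of its exon bases are shared with Jmjd8 on the opposite strand, which had at most 1.17 CPM. The deposited gene length of Stub1, 1672 bases, is not that of M21, 2561 bases, so the overlap in the annotation that was counted is not known. The libraries did not keep strand, so reads from such stretches cannot be assigned to 1 of the genes.

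Sqstm1, the p62 receptor that ties ubiquitin-marked cargo to the autophagosome (chr11:50199366-50210827, minus strand), was higher in wounded cells in both fractions. It was at 68.0, 63.8 and 71.3 CPM in unwounded total and at 75.4, 67.4 and 74.1 CPM in unwounded cortical libraries, which overlapped. Wounded total libraries held 112, 124 and 114 CPM and wounded cortical libraries 101, 100 and 88.8 CPM. All 6 wounded libraries were above all 6 unwounded ones. The wound difference was 0.78 (SE 0.10) on the log2 scale in the total and 0.42 (SE 0.10) in the cortical fraction. The fractions differed by 0.09 (SE 0.10) in unwounded cells. In wounded cells all 3 cortical libraries were below all 3 total libraries, with a log2 difference of -0.27 (SE 0.10). Sqstm1 shares 580 exon bases with Mrnip on the opposite strand, which was at 3.80 to 10.2 CPM.

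Synpo2, the adaptor that connects the BAG3 complex to autophagosome formation in muscle (chr3:123076519-123236149, minus strand), had no counts in 10 of the 12 libraries. It had 4 counts in wounded total replicate 2 and 5 in wounded cortical replicate 2, and it was not among the genes tested. A count of 0 allows up to 3 counts, or 0.128 to 0.334 CPM before TMM scaling in the 10 libraries without a count; this limit covers counting error only.

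**Figure D2:**
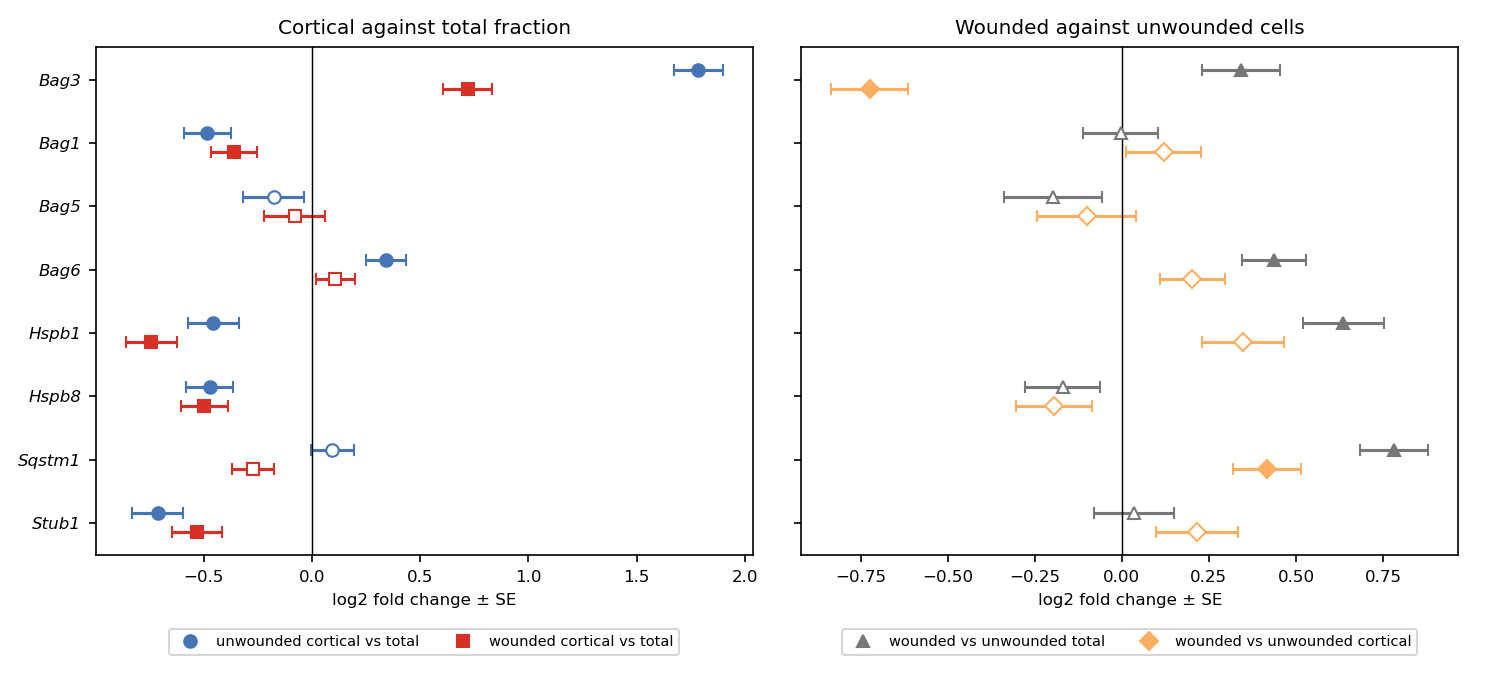
Log2 fold changes (horizontal axes) of the 8 tested members for cortical against total fractions (left) and wounded against unwounded cells (right); whiskers are the SE, and filled symbols have an adjusted p under 0.05 in the fit over all genes. Bag3 is at 1.79 in unwounded and 0.72 in wounded cells on the left, and it is the member at -0.72 in the cortical fraction on the right.

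Counted at an adjusted p under 0.05 in the fit over all genes, 6 of the 8 tested members passed in the unwounded cortical-to-total comparison, where 14.2% of all genes did. Bag3 and Bag6 were among the higher genes (6.62% of all), and Bag1, Hspb1, Hspb8 and Stub1 among the lower (7.59% of all). In wounded cells 5 of 8 passed (15.7% of all genes), Bag3 as higher (7.62% of all) and the same 4 genes as lower (8.03% of all). Between wounded and unwounded total fractions 4 of 8 passed (15.6% of all genes): Bag3, Bag6, Hspb1 and Sqstm1, each higher (8.39% of all were higher and 7.2% lower). Between wounded and unwounded cortical fractions 2 of 8 passed (2.48% of all genes), Sqstm1 as higher (1.6%) and Bag3 as lower (0.884%). For the wound change of the ratio Bag3 was 1 of 17 genes that passed (0.125% of all). With 1 library left out in turn, 4 to 413 genes passed, and Bag3 did not pass without wounded cortical replicate 3. Because the list was drawn up from these comparisons, nothing is read from its counts against the background. The members' median log2 difference was -0.32, -0.31, 0.19, 0.16 and -0.13 in the 5 comparisons in that order, and that of all genes lay between -0.03 and 0.04.

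Gene length and single libraries moved some of these counts. With the trend of the fold change on gene length removed, Bag3 alone passed in the unwounded cortical-to-total comparison, at 1.93, and Bag3, Hspb1 and Hspb8 in the wounded one. Of all genes, 732 were then higher and 711 lower in the unwounded comparison, and 365 higher and 1094 lower in the wounded one. Bag3's higher level in the wounded total fraction passed in 7 of 20 alternatives, and Sqstm1's in the wounded cortical fraction in 8 of 20, in none of the 6 that left out 1 cortical library. Without wounded total replicate 1, 6, 6, 4, 3 and 2 members passed in the 5 comparisons. Of all genes, 3151, 3475, 3502, 1276 and 413 passed there, against 1928, 2124, 2116, 337 and 17 with all libraries. Without unwounded cortical replicate 3, 3 members passed in the unwounded cortical-to-total comparison, where 1216 of all genes did. With scaling by library size alone, which moved the median of all genes to 0.19 and 0.25 in the cortical-to-total comparisons, the wounded one had Bag3, Bag6 and Hspb1 past the threshold, and Hspb8 did not pass in either. Of all genes, 2203 were then higher and 520 lower in the wounded comparison, and 1582 higher and 469 lower in the unwounded one.

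The 5 genes with the profile most like that of Bag3 were found, by Pearson's r of log2 CPM over the 12 libraries, among 8855 other protein-coding genes whose mean count was 100 or more. They were Ppp1r13l, an inhibitor of p53 family proteins (r = 0.981), Prune2 (0.981), the transcription factor Zbtb7a (0.979), the biotin-dependent enzyme acetyl-CoA carboxylase, Acaca (0.978), and the endoplasmic reticulum stress factor Atf6 (0.978). The points share libraries, scaling and the 4 groups, so r is a description only. Acaca differed most between the unwounded fractions, from 39.4 ± 2.42 CPM (SD, n = 3) in total to 469 ± 7.73 CPM in cortical libraries, and was at 46.0 ± 6.62 and 216 ± 17.8 CPM in wounded cells. Atf6 matched Bag3 in size as well as shape, at 18.4 ± 1.90 CPM in unwounded total, 64.6 ± 5.14 in unwounded cortical, 23.9 ± 0.679 in wounded total and 41.0 ± 0.911 in wounded cortical libraries. The log2 change of the cortical-to-total ratio with wounding was -0.91 for Ppp1r13l, -1.46 for Prune2, -0.40 for Zbtb7a, -1.34 for Acaca and -1.04 for Atf6, beside -1.07 for Bag3.

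**Figure D3:**
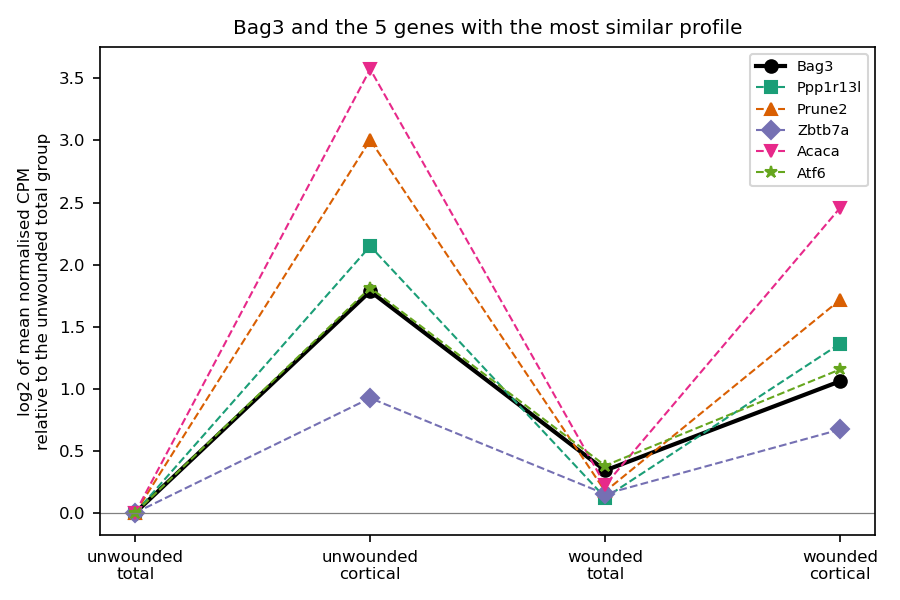
Mean normalised CPM of Bag3 (black) and its 5 most similar genes in the 4 groups (n = 3 each), as log2 relative to the unwounded total group; the lines only join the points of a gene. In each gene the unwounded cortical group is highest, the wounded cortical group second and both total groups lowest.

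The other genes of these pathways were taken from 6 lists with 85 genes, of which 81 were tested. Their differences were tested with edgeR's quasi-likelihood test, two-sided, with Benjamini-Hochberg adjustment over all 13571 genes. The lists were written from general knowledge, but earlier results of these data were known by then. These tests are thus no independent evidence for a pathway as a whole. In unwounded cells 20 of the 81 passed between cortical and total fractions, 10 higher and 10 lower, against 14.2% of all genes (6.62% higher and 7.59% lower). Of the 6 BAG family and Hsp70 exchange factors, 1 rose in the cortical fraction and 1 fell. The Hsp110-type exchange factor Hspa4l went from 57.3 ± 1.61 CPM (SD, n = 3) in total to 86.6 ± 7.41 CPM in cortical libraries (log2 0.60, SE 0.10, adjusted p = 0.00126), and the Hsp70-binding protein Hspbp1 fell by 0.54 on the log2 scale (adjusted p = 0.00836). Both passing small heat shock proteins, of 4 tested, were lower. The lens and muscle chaperone Cryab fell from 375 ± 3.33 to 223 ± 12.9 CPM (adjusted p = 0.000961), and Hspb6 fell by 0.61 on the log2 scale (adjusted p = 0.00698). Their direction was that of Hspb1 and Hspb8.

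Among 20 tested BAG3 partners and genes of chaperone-assisted autophagy, 5 were higher and 1 lower in the unwounded cortical fraction (6.62% and 7.59% of all genes). The list median was 0.34 against 0.00 for all genes. Amotl1, an angiomotin family protein, rose from 104 ± 6.33 to 167 ± 8.36 CPM (log2 0.69, SE 0.10, adjusted p = 0.000318). The actin-associated protein Synpo rose by 0.65 (adjusted p = 0.0396) and the vesicle tethering subunit Vps18 by 0.50 (adjusted p = 0.0402) on the log2 scale. Of 7 BAG6 partners 1 passed (14.3%, near the share of all genes), and this gene, Ubl4a, fell from 230 ± 23.4 to 123 ± 7.74 CPM (log2 -0.90, SE 0.17, adjusted p = 0.00205). Of 14 selective autophagy receptors and regulators 3 rose and 1 fell, among them the receptors Calcoco1 (log2 0.65, adjusted p = 0.00999), Nbr1 (0.52, adjusted p = 0.0403) and the mitophagy receptor Bnip3 (-0.93, adjusted p = 0.0429). Of 30 core autophagy genes 5 passed (16.7%, near the share of all genes), of which 1 rose, the lipid transfer protein Atg2a (log2 0.60, adjusted p = 0.00768). The other 4 fell, among them the ATG8-type genes Gabarap (-0.50, adjusted p = 0.00443) and Gabarapl2 (-0.45, adjusted p = 0.0399). The count of 20 became 9 with the gene length trend removed. It was 10 without unwounded total replicate 1, 9 without replicate 2, and 11, 12 and 12 without unwounded cortical replicates 1, 2 and 3. Hspa4l, Cryab, Amotl1 and Ubl4a passed in all 20 alternatives, whereas Atg2a passed in 19, Calcoco1 and Hspbp1 in 18, Hspb6 in 17, Vps18 in 11, Synpo and Bnip3 in 10, Nbr1 in 9 and Gabarapl2 in 8.

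In wounded cells 17 of the 81 passed between the fractions, 7 higher and 10 lower (15.7% of all genes, 7.62% higher and 8.03% lower). Hspbp1 (log2 -0.61, adjusted p = 0.00422), Cryab (-0.58, adjusted p = 0.00512) and Ubl4a (-0.96, adjusted p = 0.00143) were lower in the cortical fraction here as well. Hspb2 fell by 0.92 (adjusted p = 0.0143) and the tail-anchor co-chaperone Sgta by 0.49 (adjusted p = 0.00642). Of the BAG3 partners 4 rose and 1 fell. Filamin A, Flna, the actin cross-linker of the same family as the muscle client of this route, went from 87.4 ± 5.30 CPM (SD, n = 3) in total to 133 ± 4.60 CPM in cortical libraries (log2 0.61, SE 0.12, adjusted p = 0.00396). Amotl2 rose by 1.15 (adjusted p = 0.0277) and the Hippo pathway kinase Lats1 by 0.60 (adjusted p = 0.011). In the autophagy lists, Map1lc3b, which encodes LC3B, fell from 271 ± 56.8 to 168 ± 9.02 CPM (adjusted p = 0.00489), the ATG8-processing protease Atg4d rose by 0.76 (adjusted p = 0.00334), Wdfy3 rose by 0.79 (adjusted p = 0.0455) and Atg10 fell by 0.83 (adjusted p = 0.0253). Wdfy3 passed in 8, Atg10 in 12, Amotl2 and Lats1 in 16 and Hspb2 in 17 of 20 alternatives. The count of 17 became 8 with the gene length trend removed, 29 without wounded total replicate 1, 10 without wounded total replicate 2 and 11 without wounded cortical replicate 2.

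With wounding, the total fraction showed 22 of the 81 genes past the threshold, 17 higher and 5 lower (15.6% of all genes, 8.39% higher and 7.2% lower). The selective autophagy receptors and regulators had 4 of 14 higher and none lower, with a median of 0.29. The endoplasmic reticulum receptor Calcoco1 rose from 14.7 ± 2.60 to 40.8 ± 5.38 CPM (SD, n = 3; log2 1.47, SE 0.15, adjusted p = 1.62e-05). Tollip rose by 0.71 (adjusted p = 0.000246) and Tax1bp1 by 0.57 (adjusted p = 0.000868). Of the 30 core autophagy genes 8 rose and 2 fell. Map1lc3b rose from 138 ± 22.6 to 271 ± 56.8 CPM (log2 0.97, SE 0.15, adjusted p = 0.000383), Atg13 of the initiating kinase complex rose by 0.85 (adjusted p = 0.000181), and Atg4d fell by 0.86 (adjusted p = 0.00105). Hspa4l rose from 57.3 ± 1.61 to 121 ± 11.6 CPM (log2 1.08, SE 0.10, adjusted p = 6.14e-06) and its relative Hspa4 by 0.37 (adjusted p = 0.0313), while Bag2, a BAG protein that inhibits STUB1, fell by 1.00 (adjusted p = 0.00602). Hspb6 fell by 0.70 (adjusted p = 0.00248). Synpo rose by 0.81 (adjusted p = 0.0114), Amotl1 by 0.55 (adjusted p = 0.00127) and Sgta by 0.33 (adjusted p = 0.0491), and the heat shock factor Hsf1 fell by 0.35 (adjusted p = 0.0362). Sgta passed in 5, Hsf1 in 9, Hspa4 in 13 and Synpo in 18 of 20 alternatives. The count of 22 was 14 without unwounded total replicate 1 and 14 without replicate 2.

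In the cortical fraction 9 of the 81 rose with wounding and none fell (2.48% of all genes passed). Among the genes that passed, the largest differences of their lists were Hspa4l (log2 0.66, adjusted p = 0.00274), Calcoco1 (0.71, adjusted p = 0.0179), Tollip (0.51, adjusted p = 0.0125), Atg13 (0.69, adjusted p = 0.00421), Atg4b (0.64, adjusted p = 0.0144), Gabarapl2 (0.60, adjusted p = 0.0277), Flna (0.50, adjusted p = 0.0407) and Amotl1 (0.38, adjusted p = 0.0478). Hspa4l and Atg13 passed in all 20 alternatives, Tollip in 16, Atg4b in 15, Calcoco1 in 14, Gabarapl2 in 12, Flna in 7 and Amotl1 in 4. The count of 9 was 5, 2 and 3 without unwounded cortical replicates 1, 2 and 3, was 2, 3 and 3 without wounded cortical replicates 1, 2 and 3, and was 20 without wounded total replicate 1. For the wound change of the cortical-to-total ratio, no gene of the lists passed in the edgeR fit of all 12 libraries (0 of 81, and 9 at an unadjusted p under 0.05). With DESeq2 1 passed, and with edgeR without wounded total replicate 1, 2 passed.

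**Figure D4:**
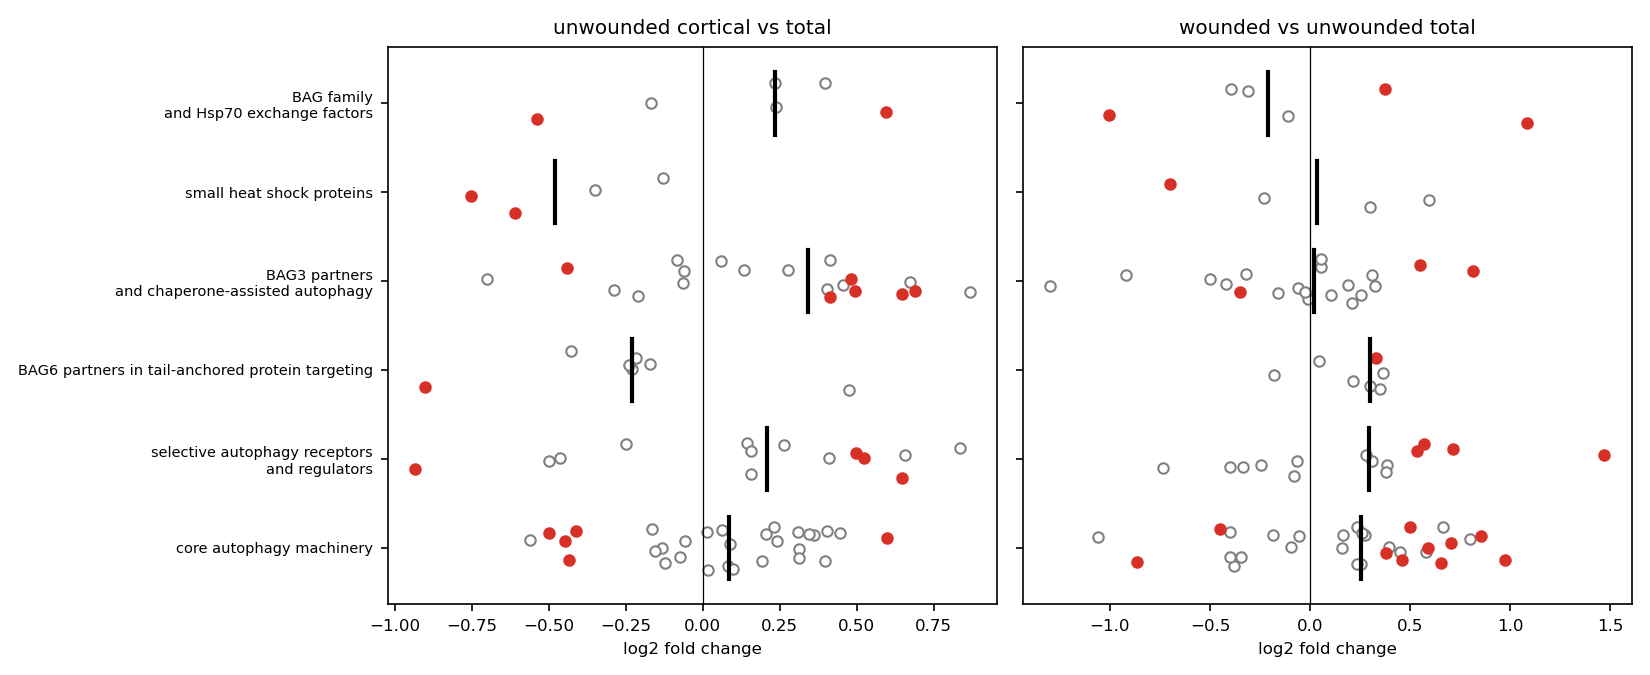
Log2 fold changes (horizontal axes) of the 81 tested pathway genes by list, for the cortical against the total fraction of unwounded cells (left) and for wounded against unwounded total fractions (right); red points have an adjusted p under 0.05 and black bars are list medians. The 2 red small heat shock proteins, Cryab and Hspb6, lie below 0 on the left, and Calcoco1 at 1.47 is the point farthest right in the right panel.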

How the data were processed

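The tables deposited by the authors were used, raw counts per gene and FPKM, each with a column for every library and 0 columns unused. Within a library, each deposited FPKM equalled the count over gene length times a constant. CASAVA, HISAT2 and the mm10 build come from the submitters' processing notes; the counting tool and annotation are not given in the sources used here. Per the labels, poly-T selection was followed by random priming, and the libraries do not keep strand.

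The counts were modelled with edgeR 4.0.16 (R 4.3.3): genes were filtered with filterByExpr, scaled with TMM factors (0.831 to 1.10), and fitted in 1 quasi-likelihood model with a mean for each of 4 groups of 3 libraries. Each of 5 contrasts was adjusted by Benjamini-Hochberg over 13571 genes, with a threshold of 0.05. SE is that of the log2 fold change, taken as its absolute value over the square root of the F statistic. Alternatives used DESeq2 1.42.0, limma 3.58.1 on log2 of FPKM plus a pseudocount of 1, other scalings, no filter, a replicate block, a gene length trend, 2 groups per fit and each library left out. Figures used matplotlib. Depth was 8980013 to 23457548 counts per library.

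The members and lists were chosen with earlier results of these data known. Text names all 9 members, at most 3 called genes per list and comparison with the largest change, and the 5 genes most correlated with Bag3. Lists were written from general knowledge, with the earlier results known.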

Additional observations from a re-analysis of the deposited data

Results flagged for a closer look

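Bag3 had a smaller cortical-to-total ratio in wounded than in unwounded cells, a log2 difference of -1.07 (SE 0.16), or 2.09-fold. It is listed here because the ratio's change passed the threshold of the fit over all genes. Bag3 was chosen from results of these libraries, so that passing is a description and no independent test. All 3 wounded cortical libraries lay below all 3 unwounded cortical libraries, and all 3 wounded total libraries lay above all 3 unwounded total libraries. The value ran from -1.17 to -0.998 over 19 alternatives, and it did not pass without wounded cortical replicate 3, where it was -1.04.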

How the results depend on the processing

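No called member and none of the 68 called pathway tests turned direction in any alternative, and 24 of the 68 passed in every one. With the gene length trend removed, pathway genes past the threshold fell to 9 (unwounded) and 8 (wounded) between cortical and total fractions, and all genes for the wound change of the ratio were 30. With only the groups compared in the fit, all genes were 3014 (unwounded cortical against total), 970 (wounded, with 10 pathway genes), 1175 (wounded against unwounded total, with 14 pathway genes) and 1423 (cortical, with 18 pathway genes). For wounded against unwounded cortical fractions, all genes were 199 with library size alone (3 pathway genes), 736 with DESeq2 and 559 with no filter. For the wound change of the ratio they were 11 with library size alone, 72 with DESeq2 (1 pathway gene), 138 with no filter and 10 with limma on FPKM. Leaving out 1 library in turn gave 949 to 3151, 1084 to 3475, 1128 to 3502, 108 to 1276 and 4 to 413 genes in the 5 comparisons, and 9 to 28, 10 to 29, 14 to 30, 2 to 20 and 0 to 2 pathway genes. The highest count of all genes in each comparison came without wounded total replicate 1, the library with the fewest genes detected. The cause of these differences was not tested. The split of all genes into higher and lower calls moved with library size alone: 1582 higher and 469 lower between unwounded fractions, 2203 and 520 between wounded fractions, and 708 and 1104 between wounded and unwounded totals. With the length trend removed it was 365 and 1094 between wounded fractions and 1909 and 664 between totals. The labels do not say whether libraries that share a replicate number belong together. Between such libraries the deviations correlated at -0.051 to 0.219 (mean 0.012) over 18 pairs and 10386 genes. Unwounded against wounded total gave 0.150, 0.219 and -0.014 for replicates 1, 2 and 3. Libraries with different numbers were not correlated for reference, so these values cannot decide whether the numbers pair the libraries. With a replicate block 10 genes passed for the wound change of the ratio, and Sqstm1 was 1 of the calls lost between cortical fractions, as in 11 of the other 19 alternatives. Synpo2, with 9 counts in all, was not among the genes tested, and the part that depth had in this was not tested.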
